A study of Homo sapiens with 8 samples.

Results

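The type II keratin cluster on chromosome 12 is a run of neighbouring keratin genes, and the data described here are the p63-bound regions listed inside it in 2 human squamous cell carcinoma lines. Members were chosen by position alone: every region of either list whose midpoint fell in the 0.9 Mb from 52500000 to 53400000 of chromosome 12 (hg19). This gave 20 distinct regions of 15267 in all, of which 18 stood in the CAL27 list of 13829 and 11 in the SCC13 list of 5886. p63 is the transcription factor encoded by TP63, and its binding was profiled by chromatin immunoprecipitation and sequencing (ChIP-seq). CAL27 is a tongue carcinoma line, grown in DMEM F:12 medium with serum, and SCC13 is a skin carcinoma line, grown in Keratinocyte-SFM with pituitary extract, EGF and added calcium. Both were labelled WT in genotype and without treatment, each is a single established line, and line and culture medium cannot be told apart. The 8 samples formed 4 groups of 2: p63 ChIP in CAL27, p63 ChIP in SCC13, and in each line a pair titled none, which has no list of its own here. Each line had 1 list for both of its p63 replicates, with 3 columns (chromosome, start, end) and no score, so the spread between replicates and the depth are unknown and no p-values are reported. Absence from a list does not show that p63 was absent from a site.

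Keratins are the intermediate filament proteins of epithelia, built from pairs of a type I and a type II chain. KRT5 is the type II keratin of basal cells, where p63 is most abundant, KRT6A and KRT6B are keratins of wounds and activated epithelium, KRT1 appears as cells leave the basal layer, KRT4 belongs to mucosal epithelia, and KRT7, KRT8 and KRT18 belong to simple epithelia. KRT18 is a type I keratin, although it lies beside KRT8 in the type II cluster. The RefSeq gene order, taken from GRCh38 for names only, placed 27 protein-coding keratin genes from KRT80 to KRT18 with no other protein-coding gene between them. Positions in hg19 were available to the nearest 10 kb for 5 of the 9 named genes: KRT6A at 52.88 Mb, KRT5 at 52.91 Mb, KRT1 at 53.07 Mb, KRT8 at 53.29 Mb and KRT18 at 53.34 Mb. The other 4, KRT80, KRT7, KRT6B and KRT4, could be placed relative to these only by gene order. Exons, introns and transcription starts were not analysed here. All 20 regions lay in band 12q13.13.

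Promoter sequences of 3 genes are shown, those of KRT5, of KRT8 and of KRT3, a keratin of the cornea that lies between KRT1 and KRT8. They were picked after the search described here because, of the 15 entries for keratin genes of the cluster, they are the 3 with a match to any motif searched. They are RefSeq sequences of GRCh38.p14, each with 250 bases before the start given by its entry and 50 from it on. All are on the minus strand: chr12:52520345-52520644 for KRT5, chr12:52926420-52926719 for KRT8 and chr12:52796068-52796367 for KRT3. Other starts of these genes were not analysed here. These coordinates are of another build than those of the p63 regions and cannot be set beside them. Capitals mark matches to core sequences of the p53 family, to which p63 belongs: in KRT5 and KRT8 a CATG core with 3 purines before it and 3 pyrimidines after it, and in KRT3 a pair of cores, CATGNNNNNNCATG.
KRT5: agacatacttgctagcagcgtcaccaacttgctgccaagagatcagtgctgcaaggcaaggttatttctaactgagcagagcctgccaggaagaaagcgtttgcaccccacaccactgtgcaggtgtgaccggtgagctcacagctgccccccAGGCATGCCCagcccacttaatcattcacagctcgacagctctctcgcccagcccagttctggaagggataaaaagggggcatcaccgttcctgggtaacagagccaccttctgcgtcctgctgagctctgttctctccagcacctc
KRT8: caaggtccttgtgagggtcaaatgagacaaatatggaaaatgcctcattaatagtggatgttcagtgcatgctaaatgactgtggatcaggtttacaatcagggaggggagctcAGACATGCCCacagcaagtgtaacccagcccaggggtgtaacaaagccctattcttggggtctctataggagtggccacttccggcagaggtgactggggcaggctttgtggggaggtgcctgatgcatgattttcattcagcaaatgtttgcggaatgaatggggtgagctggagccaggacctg
KRT3: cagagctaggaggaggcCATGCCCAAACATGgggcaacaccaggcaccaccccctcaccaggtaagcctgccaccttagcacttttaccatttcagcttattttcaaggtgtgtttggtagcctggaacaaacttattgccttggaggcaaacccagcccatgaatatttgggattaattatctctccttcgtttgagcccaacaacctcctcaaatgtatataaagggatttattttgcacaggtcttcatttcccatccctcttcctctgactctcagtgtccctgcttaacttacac
The single core with purine and pyrimidine arms was a motif added after the KRT5 sequence had been read. It was held by 2 of the 15 promoter entries of 14 keratin genes of the cluster, those of KRT5 and KRT8. Of all 35116 promoters in the table, 1.57% held it. The KRT5 match was known before the motif was written, so the count of 2 cannot be compared with that share. The single core began 97 bases before the start that the entry gives for KRT5 and 136 bases before that given for KRT8. The KRT8 entry lies farther above the KRT5 entry than the rounded hg19 positions place KRT8 above KRT5, by more than their rounding. Whether it holds the main start of KRT8 was not tested. The paired core was held by 1 of the 15, that of KRT3, and by 0.373% of all promoters. The KRT3 pair also counts as a match to CATGNNNNNNCNNG (CNNGNNNNNNCATG on the other strand), which 9.70% of all promoters held and which no other keratin entry did. The AP-1 letters TGANTCA were in none of the 15 and in 7.71% of all promoters. Both strands were searched. Each match is a description of these letters, and whether a p63 region covers it was not analysed here. The other 13 keratin genes of the cluster, KRT6A, KRT6B, KRT80, KRT7, KRT1 and KRT18 among them, had no entry in the promoter table.

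KRT5 had the widest p63 region of the window beside it, and both lines listed it. This region, at 52914778 to 52916960, was 2183 bp wide, and its midpoint lay 5.87 kb above the KRT5 position. KRT5 is read from the minus strand in RefSeq, so higher coordinates lie towards its start. The region was the 78th widest of the 13829 in CAL27 and the 55th widest of the 5886 in SCC13, and regions at least as wide made up 0.564% of the CAL27 list and 0.934% of the SCC13 list. On chromosome 12 it was the 3rd widest in each list. The next widest member was 1395 bp. Shared regions had the same ends in both lists, so equal width in both lines is not a second measurement.

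KRT1, the keratin of the first suprabasal layers, had a region within 10 kb of its position, as KRT5 did. How often any point of this dense window lies as near to a region was not computed, so nearness is no trait of these genes. KRT8 missed this distance narrowly, with an SCC13 region at 10.37 kb. The rounding of the positions, by up to 5 kb, is larger than that margin. The same rounding could take the KRT5 region, at 5.87 kb, past 10 kb. It also does not settle on which side of KRT1 the region nearest to that gene lies. The KRT1 region, at 53065998 to 53066798, was 801 bp wide, had its midpoint 3.60 kb below the KRT1 position, and was listed in both lines. In CAL27 a second region of 1174 bp, at 53092134 to 53093307, lay 22.72 kb above the KRT1 position, and SCC13 did not list it. Between KRT5 and KRT1, where gene order places KRT71, KRT74, KRT72, KRT73 and KRT2, there was a tight group of 3 CAL27 regions within 5.25 kb. Its middle region, at 52973788 to 52974915, was 1128 bp wide and was listed in both lines. The outer regions, of 738 bp at 52971839 to 52972576 and of 621 bp at 52976465 to 52977085, were listed in CAL27 only. KRT71 to KRT74 are keratins of the hair follicle's inner root sheath, and KRT2 is a late suprabasal keratin of the epidermis.

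No p63 region of either line lay within 20 kb of the KRT6A position, and the same held for the KRT18 position. The gap around KRT6A was 77.28 kb in CAL27 and 182 kb in SCC13. The largest gaps between regions of the window were wider, at 128 kb in CAL27 and 203 kb in SCC13. The region nearest to KRT6A in both lines was that beside KRT5, 35.87 kb away. The nearest on the other side was a CAL27-only region of 1324 bp at 52836178 to 52837501, 43.16 kb below. Gene order places KRT6C and KRT6B next to KRT6A on that lower side. KRT6A, KRT6B and KRT6C are close copies of one another, and how reads that match several copies were treated is not given in the sources used here. Their part in this gap was not tested.

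The stretch of 380 kb from the window's start to KRT6A held 8 CAL27 and 6 SCC13 regions, 5 of them in both lists. Gene order puts 11 keratin genes below KRT6A, beginning with KRT80 and KRT7. It goes on through the hair keratins KRT81 to KRT86, then KRT75, KRT6B and KRT6C. Gene order does not place KRT80 against the window's start, so the lowest regions may lie outside the run of keratin genes. The regions gathered at its low end. A group of 3 CAL27 regions ran from 52538502 to 52549777, with widths of 1361, 901 and 848 bp, and SCC13 listed the last 2 of the 3. The next regions, of 717 bp at 52569626 to 52570342 and of 965 bp at 52602563 to 52603527, stood in both lists. SCC13 alone had a narrow region of 486 bp at 52609288 to 52609773, at a gap of 5.76 kb from the one before it. Further up, a region of 1395 bp at 52731457 to 52732851 was listed in both lines and stood alone, at gaps of 121.68 kb and 76.87 kb from the nearest other members. The last pair before KRT6A, of 969 bp at 52809719 to 52810687 and the 1324 bp region already given, was listed in CAL27 only.

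Towards KRT8 and KRT18, the keratins of simple epithelia, 5 of the 6 members between the KRT1 and KRT18 positions stood in 1 list, and so did 70.9% of all 15267 distinct regions. The 220 kb between the KRT1 and KRT8 positions, where gene order places KRT77, KRT76, KRT3, KRT4, KRT79 and KRT78, held 5 CAL27 regions and 1 SCC13 region. The shared one, of 832 bp at 53269897 to 53270728, had its midpoint 19.69 kb below the KRT8 position. The 4 CAL27-only regions were that at 22.72 kb from KRT1, a narrow one of 570 bp at 53179401 to 53179970, and a pair of 702 and 1166 bp at 53255611 to 53256312 and 53260867 to 53262032. Between KRT8 and KRT18 the order turned round, with 0 CAL27 regions and 1 SCC13 region, of 586 bp at 53300077 to 53300662. Its midpoint lay 10.37 kb above the KRT8 position and 39.63 kb below that of KRT18. The nearest CAL27 region to KRT18 was 69.69 kb away. No region of either list lay between the KRT18 position and the end of the window. With no score per region, these differences rest on 1 to 4 regions each and were not tested.

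**Figure D1:**
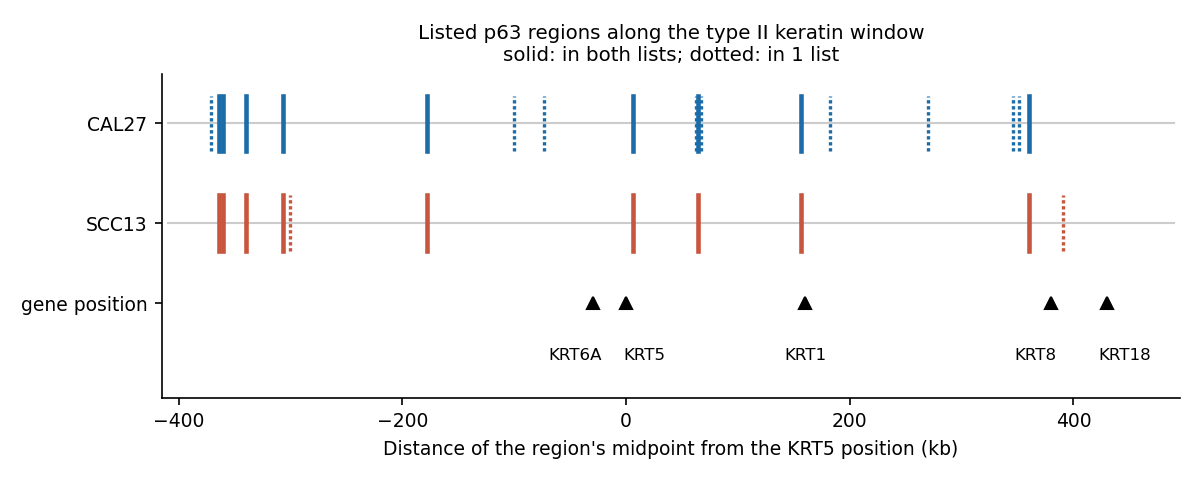
Each upright line is 1 listed p63 region of CAL27 (upper row) or SCC13 (lower row), placed by the distance of its midpoint from the KRT5 position in kb; lines are not drawn to the regions' widths, and triangles give the 5 gene positions. Solid lines are the 9 regions in both lists, dotted lines the 9 in CAL27 only and the 2 in SCC13 only, and no line stands between KRT6A and KRT5.

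Of the CAL27 regions in the window 9 of 18 were also listed in SCC13, or 50% (95% exact binomial interval 26.0 to 74.0), against 32.2% of all CAL27 regions. Of the SCC13 regions 9 of 11 were also listed in CAL27, or 81.8% (48.2 to 97.7), against 75.6% of all SCC13 regions. Both intervals hold the percentage of the whole list. The window held 0.130% of the CAL27 list and 0.187% of the SCC13 list, a ratio of 0.696 with an exact interval of 0.312 to 1.63, so a different share of the list in the 2 lines was not detectable with these counts. Shared regions are counted in both lists, and the intervals cover counting error only and take regions as independent. Shared members had identical ends, and whether the 2 lists were called separately is not known here. Standing in both lists may therefore not be 2 separate detections.

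The members listed in CAL27 only had widths from 570 to 1361 bp with a median of 969 bp, against a median of 723 bp over all 9381 CAL27-only regions. The 9 shared members ran from 717 to 2183 bp with a median of 901 bp, against 934 bp over all 4448 shared regions. The 2 SCC13-only members, of 486 and 586 bp, were near the median of 590 bp over all 1438 SCC13-only regions. In the window the widths of CAL27-only and shared members overlapped, and 4 of the 9 CAL27-only members were wider than 1 kb, as were 3 of the 9 shared ones. The share of all regions of each class wider than 1 kb was not computed, so these counts are not set against the lists. Shared members had the same ends in both lists, and how those ends were set is not known here. Widths of shared and of single-list regions may therefore not be of one kind. Widths carry no height, so they do not rank the strength of binding.

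**Figure D2:**
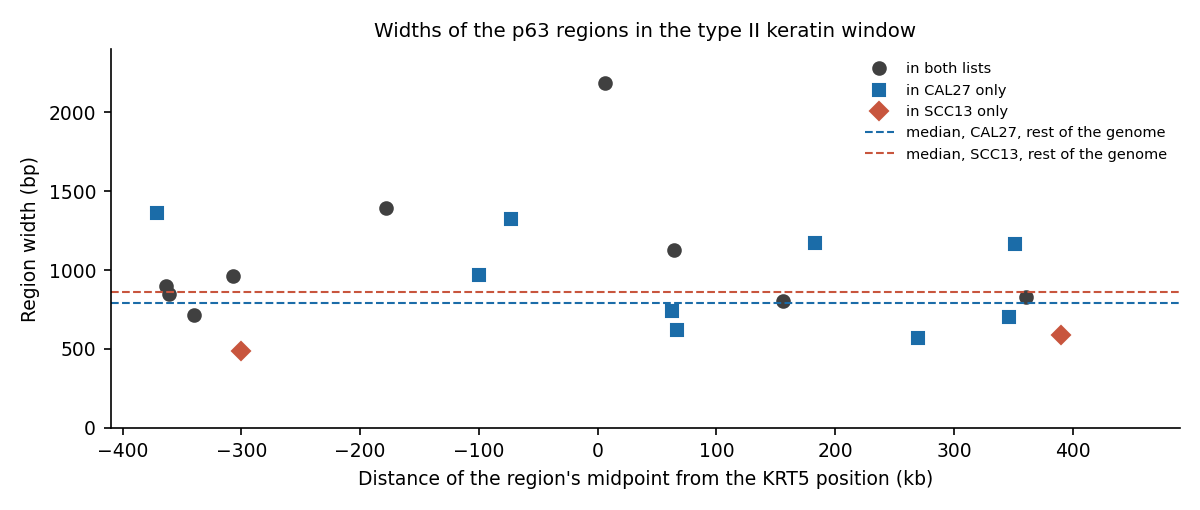
Each point is 1 region of the window, with the distance of its midpoint from the KRT5 position in kb on the x axis and its width in bp on the y axis. Dashed lines are the medians of the rest of each list, 790 bp in CAL27 and 862 bp in SCC13, and the point at 2183 bp is the region beside KRT5.

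Regions of p63 stood closer together in the keratin window than over the rest of the genome in both lines. CAL27 had 20.0 regions per Mb in the window (95% exact Poisson interval 11.9 to 31.6), against 4.55 per Mb in the rest of the genome, a ratio of 4.40 (2.60 to 6.95). SCC13 had 12.2 per Mb in the window (6.10 to 21.9), against 1.94 per Mb, a ratio of 6.31 (3.15 to 11.3). Members covered 2.04% of the window in CAL27, against 0.395% of the rest of the genome, and 1.20% of it in SCC13, against 0.180%. The rest of chromosome 12 gave ratios of 4.01 (2.36 to 6.39) in CAL27 and 5.55 (2.74 to 10.1) in SCC13. The stretches beside the window were, taken as a pair, near the rest of the genome, with 3.89 regions per Mb in CAL27 and 1.67 in SCC13: the 0.9 Mb before it held 1 CAL27 region and 2 SCC13 regions, and the 0.9 Mb after it held 6 CAL27 regions and 1 SCC13 region. Widening the window by 100 kb at each side added no region of either list. With neighbours within 10 kb counted once, the ratio to the rest of the genome fell to 3.31 in CAL27 and 5.45 in SCC13. The intervals take regions as independent and cover counting error only. The window was chosen for its genes with earlier results of these data known, it is rich in genes, and open chromatin and mappability were not analysed here, so these ratios describe the window and are no test.

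**Figure D3:**
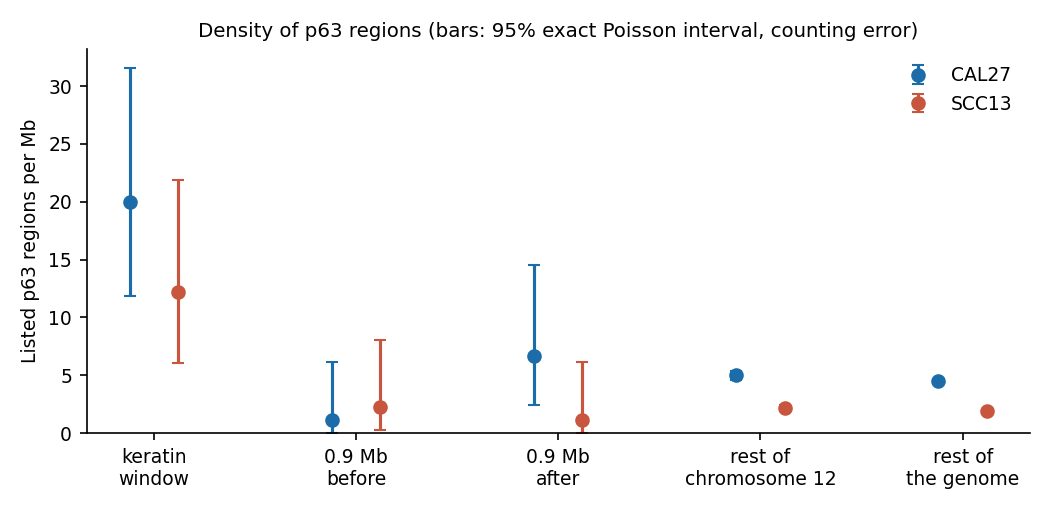
Points are listed p63 regions per Mb in CAL27 and SCC13 for the keratin window, the 0.9 Mb on each side of it, the rest of chromosome 12 and the rest of the genome; bars are 95% exact Poisson intervals of counting error. The keratin window stands at 20.0 per Mb in CAL27 and 12.2 per Mb in SCC13, above every other area drawn.

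Few windows of the same length, as cut here, held as many regions. Chromosome 12 was cut so that the keratin window was kept whole. The other chromosomes were cut from their first base, so dense stretches there could be split between windows, which lowers the counts of equally full windows. With the chromosomes divided into 3363 windows of 0.9 Mb, the median window held 3 CAL27 regions, and 29 windows, the keratin window included, held 18 or more. In SCC13 the median window held 1 region, and 4 windows, the keratin window included, held 11 or more. The fullest window held 23 in CAL27 and 14 in SCC13. Windows without any region numbered 716 in CAL27 and 1062 in SCC13, and these include unsequenced stretches such as centromeres.

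**Figure D4:**
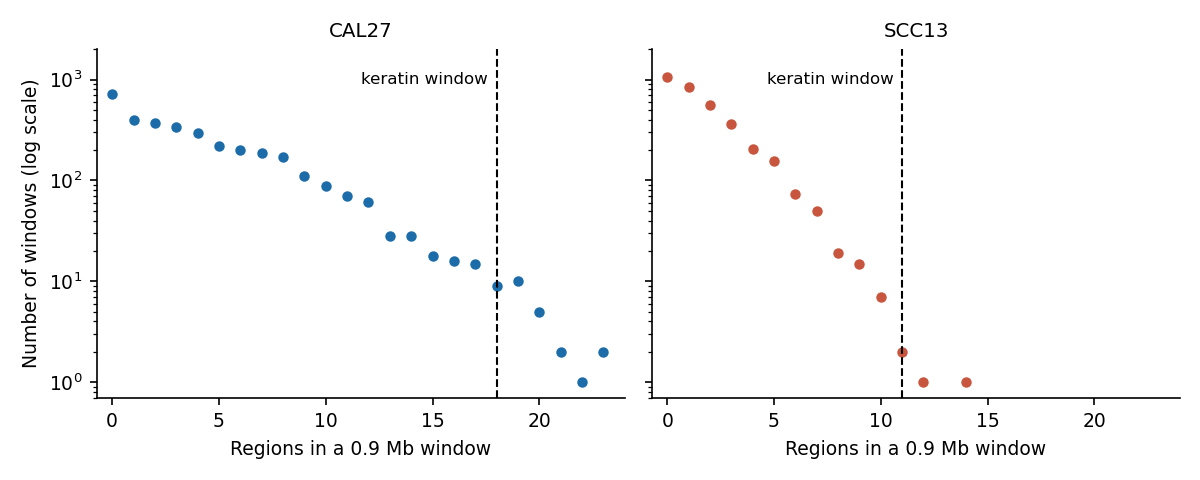
Each point gives how many windows of 0.9 Mb (y axis, log scale) held a given number of listed p63 regions (x axis), with CAL27 on the left and SCC13 on the right. The dashed line marks the keratin window, at 18 regions in CAL27 and 11 in SCC13, near the upper end of each distribution.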

How the data were processed

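The authors deposited 1 list of p63 regions per line with start and end positions and no other values; per the labels, each list stands for both p63 replicates of its line. Bowtie2, MACS2, SAMtools 1.8 and the build hg19 appear in the submitters' processing notes, with no role for any. How replicates were joined, whether the none samples served as background and which threshold applied is not given in the sources used here; depth is unknown. Positions are printed counted from 1.

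Midpoints placed regions in the window, an overlap of at least 1 bp made regions shared, and midpoints within 10 kb made a group. Gene positions in hg19 are those of the rule that set the window, rounded to 10 kb; distances run from a region's midpoint. RefSeq tables of GRCh38 gave gene order, strands and promoters. Chromosome lengths and bands of hg19 came from tables in GenomeInfoDb 1.38.1 and circlize 0.4.16. Intervals at 95% are exact binomial (Clopper-Pearson), exact Poisson, or, for ratios, exact conditional binomial. The work was done in Python 3.11.15 (scipy 1.17.1, numpy 2.4.6; matplotlib 3.10.9 for plots; pandas 2.3.3 for tables) with functions tested on simulated data.

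The window, the 9 named genes and the lists were chosen with earlier results of these data known. The text names these genes, every region of the window and the other keratin genes by order. The identity of the KRT6A, KRT6B and KRT6C promoters had been planned and was not analysed here.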

Additional observations from a re-analysis of the deposited data

How the results depend on the processing

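No paired analysis was possible because each line has 1 list for both replicates; leaving out a replicate or raising the peak threshold was not possible either. Of 38 values recomputed for 12 results, 31 stayed within 1.5 times the reported count or within the reported interval and 7 moved. Counts of regions in the window, of shared regions, the density ratios and the ratio of shares were among the 31. The 9 shared members had identical ends in both lists, so no other rule for matching regions could lose any of them. The unchanged counts and percentages of shared regions under those rules are therefore no sign of stability. What changed was set by the alternative's own construction. Regions within reach of a gene position numbered 2 in each line at 10 kb. They numbered 1 in each line at 5 kb, 4 in SCC13 at 20 kb, and 7 in CAL27 and 4 in SCC13 at 50 kb. The part of the window within these distances was not computed, so the counts do not show that regions gather near the genes. The 2 groups of neighbouring SCC13 regions became 1 at a joining distance of 5 kb. The shared percentage in SCC13 was 100% among regions above the median width of the SCC13 list. That limit leaves out both SCC13-only members and also the shared members of 717, 801, 832 and 848 bp, so few regions remain. Window edges for the shared percentages and the single-core motif were added after the data were examined.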

Other observations

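The members were also close to each other and to regions of the other line, values chosen after the data were examined. The median distance between neighbouring midpoints was 26.6 kb in the window and 82.6 kb over the whole list in CAL27, and 45.8 kb and 231 kb in SCC13. Of the 17 pairs of neighbours in CAL27, 6 lay within 10 kb, or 35.3%, against 11.6% of neighbours over the whole list. In SCC13 this held for 2 of 10 pairs, or 20%, against 5.20%. A denser window has shorter distances by construction, so this is not separate evidence.

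The 9 regions listed in CAL27 only lay at gaps of 1.21 to 89.9 kb from the nearest SCC13 region, with a median of 13.6 kb, against 109 kb over all CAL27-only regions. For 4 of the 9 the gap was within 10 kb, against 8.96% of all CAL27-only regions. These 4 were the first member of the window, the outer pair of the group between KRT5 and KRT1, and 1 region below KRT8. SCC13 regions were denser in the window than elsewhere, so shorter gaps to them follow by construction here too and are not separate evidence. The largest stretch between SCC13 regions of the window was 203 kb, from 53066799 to 53269896, between KRT1 and KRT8, and CAL27 listed 4 regions inside it. The largest in CAL27 was 128 kb, from 52603528 to 52731456, and SCC13 listed 1 region inside it.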
